A study of Mus musculus with 96 samples.

Results

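The cornified envelope genes examined here are 10 genes whose products build or accompany the cornified envelope of stratified epithelia: Tgm1, Tgm3, Ivl, Evpl, Ppl, Cnfn, Krtdap, Sbsn, Lgals3 and Cstb. They were taken by symbol from the table of counts and make up 10 of its 55487 genes. Of these, 9 passed the filter on low counts (10 or more reads in at least 10% of cells, which 14463 genes passed), and Tgm3 did not. The cells were horizontal basal cells (HBCs), the reserve stem cells of the olfactory epithelium (OE), from wild-type adult mice of 6 to 8 weeks, in which both sexes were used. The OE was dissected 2 days after methimazole, a drug that injures it, and the HBCs were cultured on an extracellular matrix until they divided. Both daughters of 48 divisions were picked by hand with their pairing noted, and the poly(A) RNA of the 96 cells was read by G&T-seq, a protocol for single cells, with ERCC spike-in added to each lysate. All cells belong to 1 condition, no mouse or culture is named for any of them, and there is no untreated or uncultured control, so that the values describe these cells and carry no p-values.

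The cornified envelope is a protein shell that replaces the inner face of the plasma membrane as a keratinocyte ends its life at the surface of a stratified epithelium. Envoplakin and periplakin, with involucrin, form a first scaffold below the membrane, transglutaminases cross-link it through isopeptide bonds, and small proline-rich proteins, loricrin and late envelope proteins are then added, while ceramides are attached to its outer face. The resting OE is not a cornified tissue, and its HBCs share keratins 5 and 14 and the transcription factor p63 with the basal layer of the epidermis, where differentiation towards the envelope starts.

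RefSeq promoter windows on GRCm38.p6, cut here to the 250 bases before the annotated start, were matched for 7 of the 10 genes (8 windows, since Tgm1 has 2 starts), and for Evpl, Ppl and Cstb none was matched. Those of 4 genes are given, with 3 chosen because they hold the AP-1 motif (TGANTCA) known from epidermal differentiation genes and that of Cnfn because it has the widest range of counts. Capitals mark the AP-1 motif and the TATA box (TATAAA), searched on both strands, and each sequence is written 5′ to 3′ on the strand of the gene.
Ivl (chr3:92573736-92573985, - strand): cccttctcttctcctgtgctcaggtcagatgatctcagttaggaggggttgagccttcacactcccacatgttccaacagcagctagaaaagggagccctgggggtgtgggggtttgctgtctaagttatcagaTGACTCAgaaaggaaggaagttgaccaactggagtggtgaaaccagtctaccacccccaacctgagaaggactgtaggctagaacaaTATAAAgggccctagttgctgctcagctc
Krtdap (chr7:30787655-30787904, + strand): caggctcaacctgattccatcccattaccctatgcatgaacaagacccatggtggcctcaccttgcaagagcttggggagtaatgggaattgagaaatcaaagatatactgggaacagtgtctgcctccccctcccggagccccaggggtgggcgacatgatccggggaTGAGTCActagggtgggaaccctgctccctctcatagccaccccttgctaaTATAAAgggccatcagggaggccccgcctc
Sbsn (chr7:30751221-30751470, + strand): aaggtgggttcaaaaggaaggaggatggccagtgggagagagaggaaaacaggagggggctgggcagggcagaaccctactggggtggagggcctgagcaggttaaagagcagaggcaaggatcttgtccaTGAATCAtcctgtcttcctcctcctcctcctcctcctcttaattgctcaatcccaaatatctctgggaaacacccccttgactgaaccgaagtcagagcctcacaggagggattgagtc
Cnfn (chr7:25369725-25369974, - strand): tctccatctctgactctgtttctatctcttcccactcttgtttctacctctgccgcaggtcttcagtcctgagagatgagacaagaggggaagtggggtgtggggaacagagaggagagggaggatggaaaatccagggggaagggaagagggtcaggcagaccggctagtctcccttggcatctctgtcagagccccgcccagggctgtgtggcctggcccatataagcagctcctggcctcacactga
The AP-1 match lay 116 bases before the start of Ivl (TGACTCA) and 81 before that of Krtdap (TGAGTCA). In Sbsn it lay 119 bases before the start and read TGAATCA, with neither C nor G in the middle. With that base open, the pattern was in 3 of the 8 windows, against 6.75% of 32851 RefSeq windows of the same length. The TATA box lay 29 bases before the start of Ivl, 30 before that of Krtdap and 28 before that of Tgm3, and was in 12.4% of all windows. The Cnfn window held neither in the letters searched, although it reads TATAAG close to the start, a pattern that was not searched. It had a GC box (GGGCGG) 54 bases before the start, as 32.7% of all windows did somewhere. The CACCC box (CACCC), a motif of Klf factors, was in all 8 windows and in 52.0% of all windows. Neither the grainyhead motif (AACCNGTT, in 1.79% of all windows) nor the ETS motif (CCGGAA, in 12.0%) was in any of the 8. The motifs do not overlap in letters, and a match says only that these letters are there.

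Reads on genes ranged from 29454150 to 44849003 per cell, and ERCC transcripts took 1.06% to 5.75%. Counts were scaled to ERCC spike-in (size factors of 0.378 to 1.89), which keeps differences in RNA content between cells, and also to the library total, which removes them, and both are given where they differ. The HBC label was checked first: Krt5, Krt14 and Trp63 were counted in 96 of 96 cells. Krt5 had a lowest count of 6760, a median of 106400 and a highest of 218505 reads. Single cells were nevertheless far below the median of the other 2. Krt14 had 691 reads in cell 4-2 (median 135243), and Trp63 had 37 in cell 46-2 (median 6999). Neuronal, microvillous, ciliated, immune and stromal marker lists had median summed levels of 0 to 8.55 CPM. The sustentacular cell list was higher, with a median summed level of 478 CPM and a highest of 10881. Of its 6 genes, Cbr2 was counted in all 96 cells (median 18194.5 reads), Il33 in 7 and Cyp2g1 in 1. Cyp1a2, Sult1c1 and Ermn had no read. The cells fall into 12 sets of 8 by the names of their deposited tables, with a position from 1 to 8 in each set, and sister cells share a set.

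Low counts of Cnfn followed the set and position of the cell in which it was highest. Cell 4-1 (pair 4, daughter 1) held 423062 reads of Cnfn. Cnfn was counted in all 7 libraries of the same set (43 to 1049 reads, median 86) and in all 11 of the same position in other sets (60 to 10648, median 127), against 40 of the other 77 (51.9%, median 4). In 12 of those 18 libraries, such as 1-1 with 91 reads and 28-1 with 60, the count was 0.0102% to 0.0303% of that of cell 4-1. For Tgm1, highest in cell 46-1 with 61770 reads, the 7 libraries of that set and the 11 of that position all had reads (16 to 25665 and 8 to 7312, medians 40 and 29), but so did 72 of the other 77, whose median was 94, so that no such excess was seen in the medians of Tgm1. The cause was not tested. In an alternative, counts were therefore taken as 0 where they fell below 0.05% of the highest count of the gene in a library of the same set or position, a rule chosen after the counts were seen. The number of cells with Cnfn then went from 59 to 31, with Tgm1 from 91 to 70 and with Sbsn from 85 to 74, and the counts set to 0 reached 128, 29 and 17 reads. Ivl went from 78 to 76 cells, and Evpl, Ppl, Krtdap, Lgals3 and Cstb stayed as they were.

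**Figure D1:**
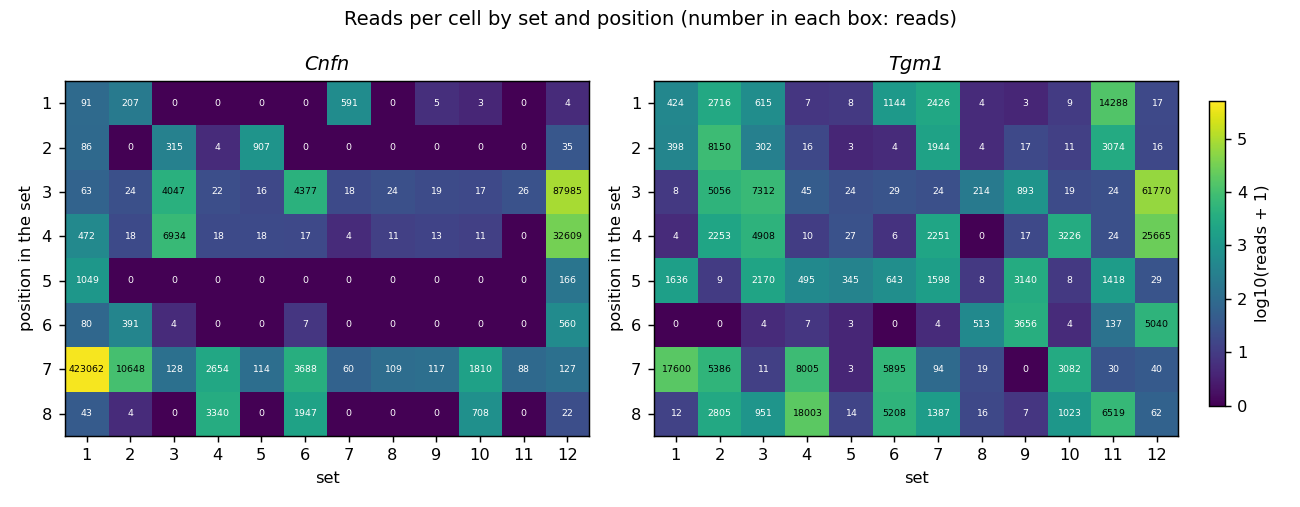
Reads of Cnfn (left) and Tgm1 (right) in each of 96 cells, laid out by set (x axis) and position in the set (y axis), with colour for log10(reads + 1) and the number of reads in each box. The row and the column of cell 4-1 (set 1, position 7, 423062 reads) hold Cnfn reads in every box, and so do those of cell 46-1 (set 12, position 3, 61770 reads) for Tgm1.

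The 10 transcripts ranged from abundant in every cell to a single cell. By TPM, which is per length and can be compared between genes, the medians over 96 cells were 925 for Cstb, 592 for Lgals3, 24.4 for Ppl, 8.55 for Sbsn, 2.97 for Evpl, 0.969 for Cnfn, 0.854 for Ivl and 0.680 for Tgm1, and 0 for Krtdap and Tgm3. The interquartile ranges of Cstb (721 to 1149) and Lgals3 (386 to 825) overlapped, as did those of Ppl (7.93 to 39.8), Sbsn (0.414 to 57.7), Evpl (0.0679 to 9.32), Cnfn (0 to 8.48), Ivl (0.0917 to 24.1) and Tgm1 (0.132 to 41.1). Cstb and Lgals3 stood above the others, and the order within each of these groups is not clear of the spread between cells. Only Ppl, Lgals3 and Cstb were counted in all 96 cells, 3 of 9 genes past the filter against 31.8% of all genes past it. Each cell held between 2 and 9 of the 10 transcripts at 100 or more reads, with 5 in 29 cells, and cell 4-1 alone had 9.

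**Figure D2:**
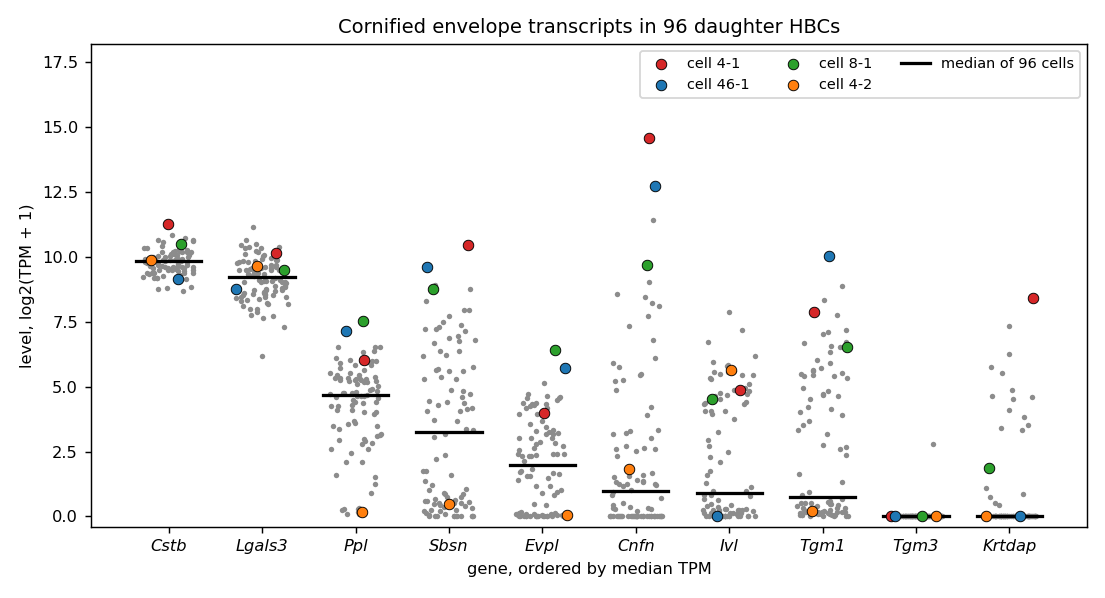
Levels of the 10 envelope transcripts, log2(TPM + 1), in 96 cells (points), ordered by median TPM (black bars), with cells 4-1, 46-1, 8-1 and 4-2 in colour. Cstb and Lgals3 form narrow bands, whereas Sbsn, Cnfn, Ivl and Tgm1 spread from 0 to above 7 and Tgm3 is above 0 in 1 cell.

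Among the cross-linking enzymes, Tgm1 (ENSMUSG00000022218, chr14:55700009-55713926 on GRCm38, minus strand), the membrane-bound transglutaminase 1 of keratinocytes, was counted in 91 cells. Its counts ran from 0 over a median of 42.5 to 61770 in cell 46-1, with 25665 in the sister 46-2 and 18003 in 16-2. They were 100 or more in 45 cells and 1 to 99 in 46, so that nearly as many cells held a few reads as held many. Tgm3 (ENSMUSG00000027401, chr2:130012349-130050399, plus strand), the transglutaminase 3 of epidermis and hair follicle that is activated by proteolysis, was counted in cell 23-1 alone, with 470 reads (1.04% of cells, exact 95% interval 0.0264% to 5.67%). Its sister 23-2 had 0 reads of Tgm3 and 0 of Tgm1, against 643 of Tgm1 in 23-1.

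Of the scaffold proteins, Ppl (periplakin, ENSMUSG00000039457, chr16:5086291-5132421, minus strand) was counted in every cell, from 10 reads in cells 2-2 and 31-2 over a median of 3144.5 to 23297 in cell 8-1, and was at 1000 reads or more in 74 cells. Evpl (envoplakin, ENSMUSG00000034282, chr11:116220559-116238077, minus strand), which forms dimers with periplakin, was highest in the same cell 8-1 (11630 reads) and second in 46-1 (6874), where Ppl was also second (18070). Evpl nevertheless had no read in 14 cells, with a median of 429, and the 2 partners had a rho of 0.31 over the 96 cells. Ivl (involucrin, ENSMUSG00000049128, chr3:92570902-92573735, minus strand), an early substrate of the transglutaminases, had no read in 18 cells, a median of 38 and a maximum of 9836 in cell 29-2, followed by 6258 in 2-2 and 4040 in 6-2. None of these 3 cells was among the 3 with the most reads of any other of the 10 genes.

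Cnfn (ENSMUSG00000063651, chr7:25367620-25369724, minus strand) encodes cornifelin, a small envelope component of differentiated keratinocytes. It was at 0 in 37 cells, at 1 to 99 reads in 32 and at 100 or more in 27, with a median of 14.5. A single cell, 4-1, held 71.7% of all its reads. By normalized counts, 4-1 with 46-1 (87985 reads) and 46-2 (32609) held 91.4%. In cell 4-1 Cnfn reached a TPM of 24157. The widest spread of the 10 genes was thus that of Cnfn, with an SD of 4.66 on the log2 scale against a median of 2.73 over 14463 genes, followed by Tgm1 (4.43), Sbsn (4.36), Ivl (4.22) and Evpl (4.21).

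Krtdap (keratinocyte differentiation-associated protein) and Sbsn (suprabasin) are secreted products of suprabasal keratinocytes, and their genes flank Dmkn (dermokine) on chromosome 7. Krtdap (ENSMUSG00000074199, chr7:30787896-30791097, plus strand) was counted in 20 cells (20.8%, exact 95% interval 13.2% to 30.3%), with 4113 reads in cell 4-1, 1515 in 25-1 and 580 in 34-1. Sbsn (ENSMUSG00000046056, chr7:30751471-30756134, plus strand) was counted in 85 cells, with a median of 184 and 34593 reads in cell 4-1, 16568 in 46-1 and 11847 in 10-2. Although the genes lie on the same strand with Dmkn between them, Sbsn varied with Dmkn (7622 bases to its right, rho 0.55, and 0.51 by library total), while Krtdap did so less (6833 bases to the right of Dmkn, rho 0.24) and Krtdap with Sbsn had a rho of 0.09. Of the other annotated neighbours, Srp68 beside Evpl had a rho of 0.43 with it (0.34 by library total) and Rabggta beside Tgm1 one of 0.36 (0.25), whereas Rrp1 beside Cstb went from 0.47 to -0.02 and Mapk1ip1l beside Lgals3 from 0.34 to -0.0044 by library total. Tmem147os, which overlaps Sbsn on the same strand, had at most 356 reads, and Gm49067, opposite to Tgm1, at most 36.

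Lgals3 (galectin-3, ENSMUSG00000050335, chr14:47367751-47386160, plus strand), a lectin of many epithelia and of macrophages, and Cstb (cystatin B, ENSMUSG00000005054, chr10:78425669-78427622, plus strand), an inhibitor of cathepsins that is cross-linked into the envelope, were abundant in every cell. Lgals3 ran from 2002 reads in cell 2-1 over 17504.5 to 64538 in 24-1, and Cstb from 4748 in cell 14-2 over 11815.5 to 40704 in 4-1. Their SDs on the log2 scale were 0.97 and 0.68, at percentiles 12.9 and 4.08 of all genes, the smallest of the 10. By library total their rho with the number of genes detected in a cell was 0.06 for Cstb and 0.08 for Lgals3, and by normalized count the highest Lgals3 was that of cell 47-1.

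How alike sisters were differed among the 10 genes. The intraclass correlation (ICC), the part of the variance on the log2 scale that lies between pairs, was 0.66 for Lgals3, 0.59 for Sbsn, 0.56 for Cstb, 0.47 for Cnfn, 0.43 for Tgm1, 0.25 for Evpl, 0.25 for Krtdap, 0.19 for Ivl and 0.10 for Ppl. An ICC of 0.5 or more was thus reached by 3 of 9, and by 6.90% of all genes past the filter, whose median was 0.16. By library total it was reached by Lgals3 (0.63) and Sbsn (0.60) but not by Cstb (0.36), against 4.40% of all genes. Sisters also share a set. With the values centred on each set, Lgals3 had an ICC of 0.61 and Sbsn one of 0.53, the 2 of 9 that then reached 0.5. Cstb was at 0.495, Tgm1 at 0.31, Cnfn at 0.30, Evpl at 0.01 and Ppl at -0.17, and the median over the 10 genes went from 0.34 to 0.20. With low counts beside a high library taken as 0, the ICC was 0.48 for Cnfn, 0.40 for Tgm1 and 0.55 for Sbsn.

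The absolute difference between 2 cells was also compared within and between pairs. For Lgals3 its median was 0.56 on the log2 scale over the 48 sister pairs and 0.96 over the 288 combinations of non-sister cells of a set. The medians were 2.23 and 5.47 for Sbsn, 1.84 and 4.42 for Cnfn, 1.92 and 4.44 for Tgm1, and 0.41 and 0.69 for Cstb. For Ivl they were 2.91 and 4.85, and for Krtdap and Tgm3, which were at 0 in most cells, both were 0. Ppl differed by 1.5 between sisters and 1.54 between non-sisters under both scalings, so that it was hardly closer within a pair than between pairs. Evpl was somewhat closer within a pair, at 2.83 and 3.35, and at 1.67 and 2.23 by library total.

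Asymmetry was taken as a ratio of 1.5 or more between the normalized counts of the daughters, with 1 added to each. Such a ratio was found in 42 of 48 pairs for Sbsn, 41 for Evpl, 39 for Tgm1, 38 for Ivl, 35 for Ppl and 33 for Cnfn, and in 21 for Lgals3, 17 for Krtdap, 14 for Cstb and 1 for Tgm3. Of the 9 genes past the filter, 6 were asymmetric in 24 pairs or more, against 79.5% of all genes past it, whose median was 33 pairs. By library total it was 5 of 9, against 63.2%. High counts of asymmetric pairs are thus common to most genes of these single-cell libraries. By library total the counts were 32 for Sbsn, 36 for Evpl, 29 for Tgm1, 30 for Ivl, 35 for Ppl and 23 for Cnfn. There the 1 was added to CPM, a smaller scale than that of the normalized counts, so that low counts weighed less. The median over genes was 34 pairs by spike-in, 26 by library total and 27 by TPM. It was 34 by the median of ratios over genes, and 30 with 10 added in place of 1. How much of the drop by library total, also in the 63.2%, comes from the scale of the added 1 was not tested.

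A stricter description asks for 100 or more reads in one daughter and fewer than 10 in the other, limits chosen after the counts were seen. Such pairs numbered 11 for Ivl, 10 for Cnfn, 10 for Evpl, 9 for Tgm1, 7 for Krtdap, 5 for Sbsn and 1 for Tgm3, and 0 for Ppl, Lgals3 and Cstb. With 10 or more such pairs, 3 of 9 genes stood beside 33.6% of all genes past the filter. Both daughters had 100 or more reads of Evpl in 24 pairs, of Sbsn in 20, of Tgm1 in 14, of Ivl in 12, of Cnfn in 6 and of Krtdap in 3. The same was counted for ERCC transcripts, which every lysate received in equal amount: 24 of them that were counted in 29 to 90 cells had 1 to 25 such pairs, with a median of 15.5. The 5 to 11 pairs of Ivl, Cnfn, Evpl, Tgm1, Krtdap and Sbsn lie inside that range, which is wide. The 22 ERCC transcripts with a count in every cell are not among the 24, so that one-sided pairs come in part from the choice. The 24 were not matched to the genes in level either. Lying inside the range therefore says nothing about the cause of the one-sided pairs, which was not tested.

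**Figure D3:**
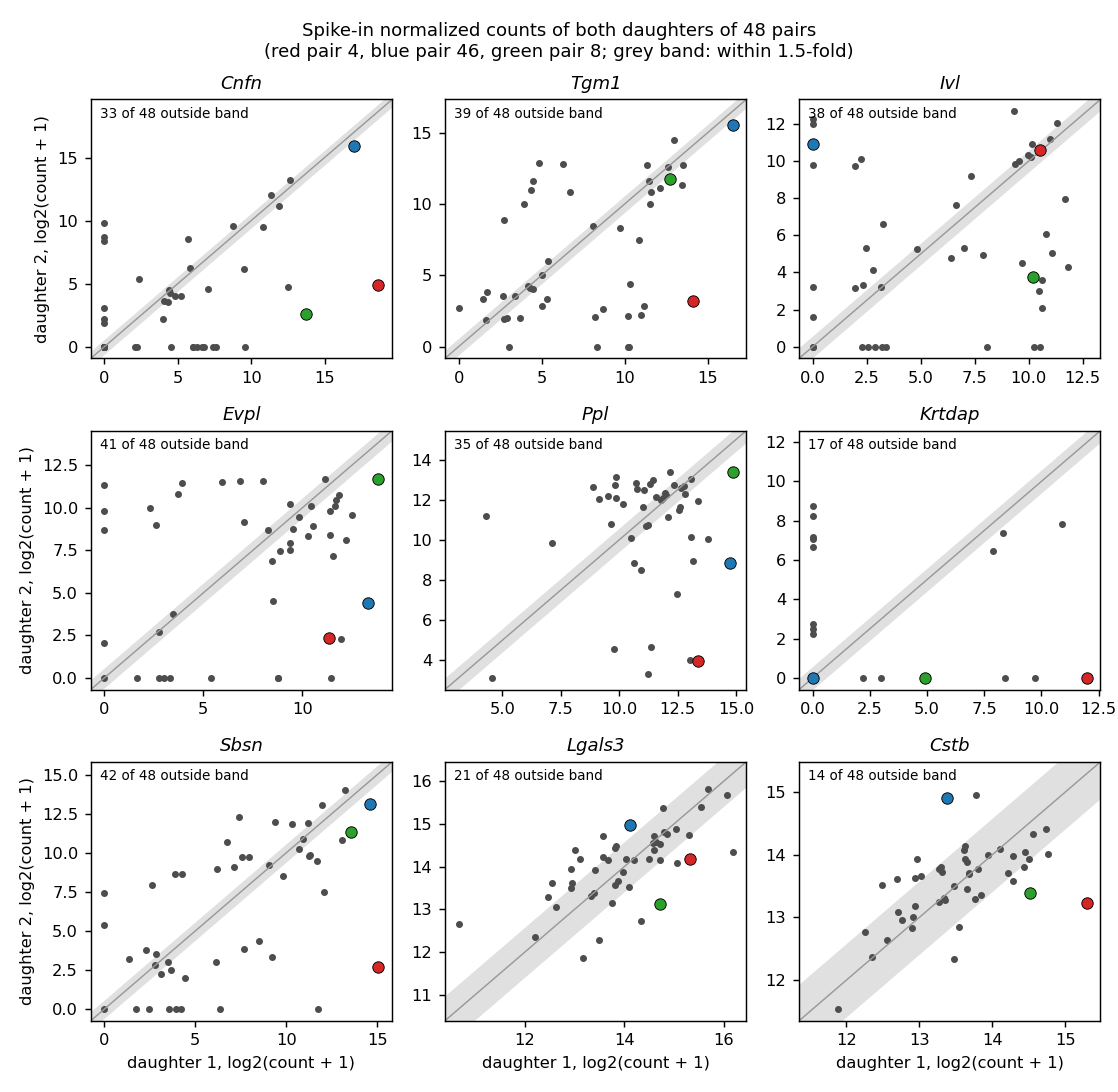
Spike-in normalized counts, log2(count + 1), of daughter 1 (x axis) and daughter 2 (y axis) of 48 pairs for 9 envelope genes, with a grey band for ratios within 1.5-fold and pairs 4, 46 and 8 in red, blue and green. Lgals3 and Cstb follow the diagonal with 21 and 14 pairs outside the band, while Ivl, Evpl and Krtdap have many pairs along an axis.

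Pair 4 had the largest difference between sisters. Daughter 4-1 had 423062 reads of Cnfn and 4-2 had 43, a ratio of 14315 after normalization. The counts were 34593 and 8 for Sbsn, 17600 and 12 for Tgm1, 10880 and 22 for Ppl, 2638 and 6 for Evpl and 4113 and 0 for Krtdap, and the normalized ratios 6292 for Sbsn, 2134 for Tgm1 and 720 for Ppl. Cstb (40704 and 14218) and Lgals3 (41756 and 27163) differed less, and Ivl went the other way with 1488 reads in 4-1 and 2328 in 4-2. Cell 4-1 was the highest of all 96 for Cnfn, Krtdap, Sbsn and Cstb.

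The sister 4-2 was not without envelope transcripts. It was the highest of all 96 cells for the small proline-rich genes Sprr2a1 (1151928 reads), Sprr2a2 (1194255), Sprr2a3 (137804) and Sprr2f (135168), while Sprr1a was highest in 4-1 (242100). The Sprr2 genes are near-identical copies, so that their reads can be split between them and the values of single copies are uncertain. Cell 4-2 also had 691 reads of Krt14, the lowest of 96 (median 135243), and 6760 of Krt5, whereas 4-1 had 137110 and 110746. Mitochondrial transcripts took 3.84% of reads in 4-2 and 2.00% in 4-1, and their part in the difference was not tested.

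In pair 46 both daughters were high, with 87985 and 32609 reads of Cnfn, 61770 and 25665 of Tgm1, but 0 and 1058 of Ivl. Trp63 had 19637 reads in 46-1 and 37 in 46-2. In pair 8, daughter 8-1 had 10648 reads of Cnfn against 4, and the highest Evpl and Ppl of all cells. Mki67, the gene of the proliferation marker Ki67, had 64 reads in 46-1, 83 in 8-1 and 127 in 4-1, the lowest, the second lowest and the sixth lowest of 96 cells (median 16647.5). These 3 cells held the highest counts of 7 of the 10 genes. The daughter 4-2 had 120 reads of Mki67, while 46-2 had 18101 with 25665 of Tgm1, and the cells highest for the remaining genes, 29-2 (Ivl), 23-1 (Tgm3) and 24-1 (Lgals3), had 1642, 5839 and 10855. The 6 cells that held the highest raw count of a gene were thus all below the median for Mki67. By normalized count, however, Lgals3 was highest in 47-1, which had 37937 reads of Mki67, above that median. The part of the cell cycle in this was not tested.

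An envelope score, the mean of the standardized log2 levels of the 9 genes past the filter, summed this up per cell. It ran from -1.26 in cell 2-1 to 1.89 in 4-1. The largest sister differences were 2.47 in pair 4 (1.89 and -0.58), 1.18 in pair 8 (1.37 and 0.18), 0.852 in pair 23, 0.814 in pair 9 and 0.8 in pair 34, against a median of 0.280 over 48 pairs and 0.515 over non-sister cells of a set. The ICC of the score was 0.52, and 0.31 by library total. Medians over the 12 sets ran from -0.37 to 0.49, and from -0.25 to 0.21 by library total.

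The score was higher in cells with more RNA relative to spike-in. By library total, where the values are not divided by the spike-in size factor, its rho with that factor was -0.46 and with the number of genes detected 0.36 over 96 cells. Under spike-in scaling these were -0.73 and 0.59, of which the first comes in part from the division itself. Because all genes of a cell share its library and its size factor, correlations under spike-in scaling carry this common part, and the median rho of 14454 other genes with the score was 0.21, against 0.02 by library total.

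Among themselves the 10 genes were only weakly correlated. Over the 45 combinations the median rho was 0.15 (range -0.11 to 0.55), with 4 at 0.4 or more, and by library total 0.06 (-0.13 to 0.44), with 2. The highest were Lgals3 with Cstb (0.55, and 0.33 by library total) and Tgm1 with Sbsn (0.50, and 0.44). Cnfn with Sbsn (0.44, and 0.41) and Sbsn with Lgals3 (0.44, and 0.23) came next. The correlations between Sbsn, Tgm1 and Cnfn (0.27 for Tgm1 with Cnfn, and 0.25) changed little with the scaling, whereas Ivl had 0.07 with Tgm1 and 0.20 with Cnfn, and Ppl between -0.02 and 0.04 with Cnfn, Sbsn and Tgm1. For the differences between sisters the median over the 45 combinations was 0.13, and 0.06 without pair 4.

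**Figure D4:**
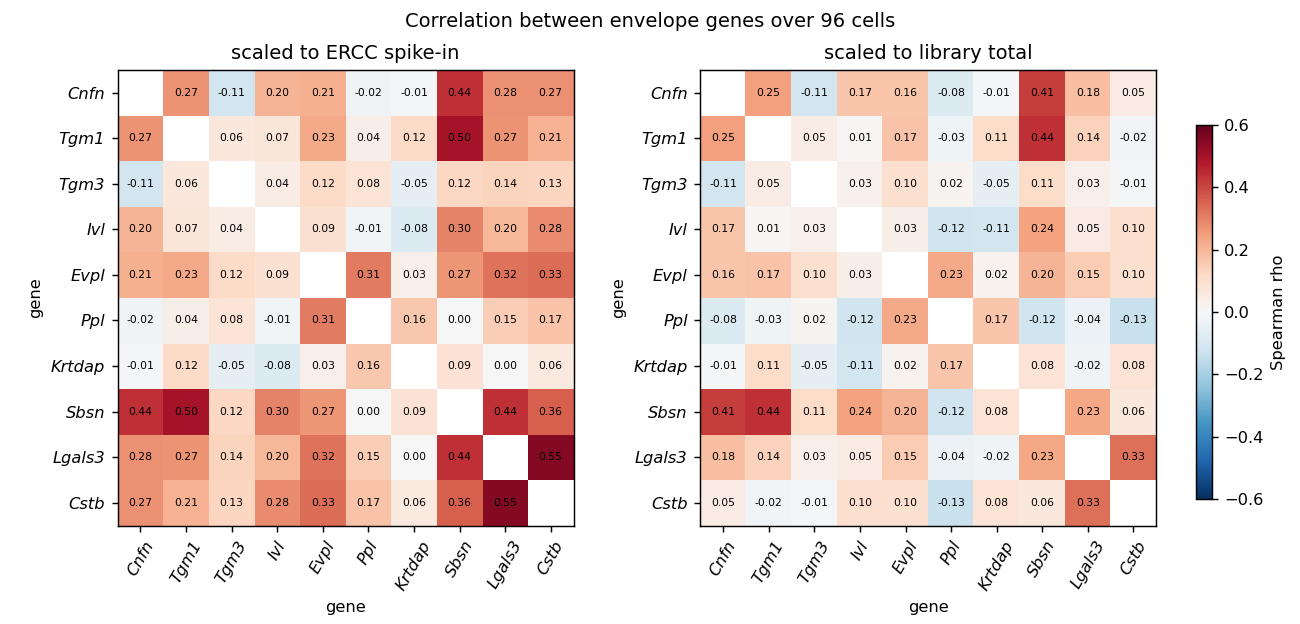
Spearman rho between the 10 envelope genes over 96 cells, scaled to ERCC spike-in (left) and to the library total (right), with the value in each box. The boxes of Sbsn with Tgm1 (0.50 and 0.44) and with Cnfn (0.44 and 0.41) stay dark under both, and that of Lgals3 with Cstb goes from 0.55 to 0.33.

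The genes whose levels were most like the envelope score were, by spike-in scaling, Hspb1 (rho 0.72), which encodes the small heat shock protein HSP27, Sfn (0.72), which encodes the epithelial 14-3-3 sigma, Gm9844 (0.71), Prelid1 (0.71), the Hspb1 pseudogene Hsp25-ps1 (0.71), Tmsb10 (0.71), Gm4610 (0.70), Rab1a (0.68), Atp6v0b (0.68) and Rnh1 (0.68). By library total Gm4610 (0.63), Hspb1 (0.62), Hsp25-ps1 (0.61) and Sfn (0.54) stayed among the 10 highest, joined by Cers3 (0.55), a ceramide synthase of the lipid envelope, Pold4 (0.54) and Kcnn4 (0.51), while Rab1a was at 0.27. Hsp25-ps1 can share reads with Hspb1, so that they are not separate entries. A rho of 0.4 or more was reached by 11.8% of genes under spike-in scaling and by 0.367% by library total.

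At the other end were Ptn (-0.39, and -0.41 by library total), the growth factor pleiotrophin, Aqp4 (-0.37, and -0.32), a water channel, Gpm6a (-0.32, and -0.35), Gstm3 (-0.30, and -0.33), Abca4 (-0.30, and -0.25) and Gstm1 (-0.28, and -0.39), a glutathione transferase. By library total the lowest were Cbx3 (-0.53) and Hmgb1 (-0.45), both genes of chromatin proteins, which were at 0.20 and 0.15 under spike-in scaling. A rho of -0.4 or less was reached by 0% of genes under spike-in scaling and by 0.0692% by library total.

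Single genes had partners of their own. Cnfn was most like Sprr3 (0.59, and 0.58 by library total), a small proline-rich envelope protein, Cpa4 (0.56) and Inhba (0.51). Tgm1 was most like Gprc5a (0.59), Igfbp3 (0.57) and Serpinb2 (0.54), a serpin found in the envelope, and Evpl like Sfn (0.52) and Krt16 (0.49). For Ivl the highest values were those of Mul1 (0.46) and of the tight junction genes Ocln (0.44) and Tjp3 (0.43). Sbsn was most like Tmsb10 (0.66), Gm9844 (0.65) and S100a10 (0.64), Lgals3 like Gabarap (0.67), and Cstb like Fam221b (0.69) and Ctsd (0.69), the gene of the protease cathepsin D. No gene had a rho over 0.5 with Ppl (Ppfia1, 0.48), Krtdap (Plcl2, 0.37) or Tgm3 (Gzmm, 0.33).

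The other genes of the cornification programme were read from lists. Of 29 late envelope genes in the table, 20 were without a read in all 96 cells (a limit of 3.13% of cells for each gene): Hrnr, Tchhl1, Lce6a and 17 other late cornified envelope genes of the Lce1 and Lce3 families. Only Lor (loricrin, in 31 cells, at most 899 reads), Tchh (29 cells) and Crnn (13 cells) passed the filter, and Flg (filaggrin) had at most 1 read. Their rho with the envelope score was -0.01, 0.21 and 0.21. In contrast, the 16 small proline-rich genes were all counted in some cell, 11 passed the filter, and their median rho was 0.34 under both scalings, with 4 at 0.4 or more (3 by library total). The highest were Sprr2a3 (0.51), Sprr2a2 (0.50) and Sprr2a1 (0.49), and the lowest Sprr2e (0.08) and Sprr2f (0.08). Sprr2a1, Sprr2a2 and Sprr2a3 were also the 3 at 0.4 or more by library total. They are near-identical copies that can share reads, so that they are not separate entries. Of all genes, 11.8% reached 0.4 under spike-in scaling and 0.367% by library total.

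Of 22 genes of the scaffold, desmosome and cross-linking list, 16 passed the filter and 12 had a rho of 0.4 or more, but only Pkp1 did so by library total (0.50). Their median was 0.48, and 0.33 by library total. S100a11 (0.67), Jup (plakoglobin, 0.64) and S100a10 (0.64) were highest, Dsc3 (-0.04) and Tgm2 (0.04) lowest, and Tgm5 and the desmoglein 1 genes Dsg1a and Dsg1b had no read. Of the lipid envelope genes, 9 of 12 passed the filter, with a median rho of 0.36 (0.24 by library total), led by Ugcg (0.56, and 0.36 by library total), Cers3 (0.56, and 0.55) and Abca12 (0.50, and 0.40). Sdr9c7 had no read. Of 8 suprabasal keratins past the filter, 4 had a rho of 0.4 or more, against 11.8% of all genes. By library total 2 did, against 0.367%. Krt80 (0.06) and Krt23 (-0.07) were lowest. The 4 were Krt17 (0.65, and 0.397 by library total), Krt6b (0.55, and 0.409), Krt6a (0.55, and 0.393) and Krt16 (0.50, and 0.412). Those 4 are keratins of injured and activated epidermis, while Krt1 and Krt2, keratins of the upper epidermis, did not pass the filter (at most 480 and 22 reads). Krt10, the partner of Krt1, did, with reads in 73 cells, a median of 158 and a rho of 0.28 (0.22 by library total).

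Of 7 proteases and inhibitors other than Cstb, Ctsl (0.62) and Ctsd (0.62) had a rho of 0.4 or more but none did by library total, Padi1 (0.03) and Padi3 (0.05) were lowest, and Klk5 and Casp14 had no read. Of 17 transcription factors of keratinocyte differentiation past the filter, Klf4 (0.40, and 0.22 by library total) and Tfap2a (0.37, and 0.12) were among the 3 highest, and Hopx (-0.13) and Ehf (-0.10) were lowest. Their median was 0.16, and 0.12 by library total. The median rho was thus lower for the transcription factors than for the structural lists, and this difference was not tested.

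**Figure D5:**
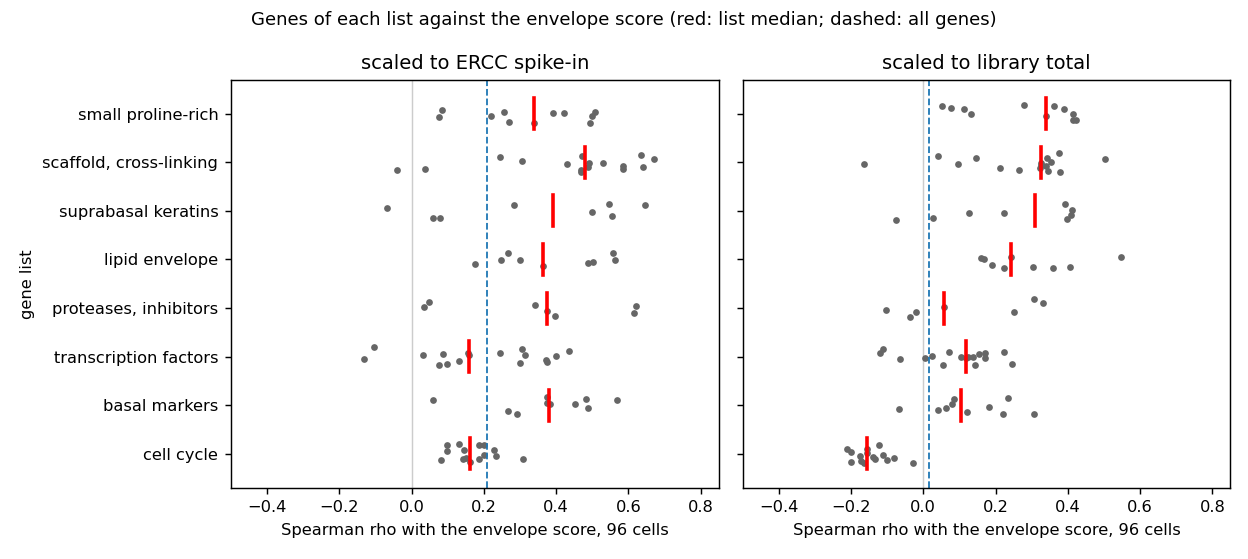
Spearman rho of each listed gene past the filter (points) with the envelope score over 96 cells, by gene list (y axis), scaled to ERCC spike-in (left) and to the library total (right), with list medians in red and the median of all genes dashed. By library total the medians of the small proline-rich, scaffold, keratin and lipid lists lie between 0.24 and 0.34 and that of the cell cycle list at -0.16, against 0.02 for all genes.

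Finally, the score was set beside the reference genes of the study and the cell cycle. The study asked whether sister HBCs differ in cell fate and histone transcripts. Its rho with the cell cycle score of 15 genes was 0.20, and -0.14 by library total, so that the direction depends on the scaling. With the basal score of 10 genes it was 0.53, and 0.21 by library total, of which Itga6 (0.57), Col17a1 (0.49) and Krt14 (0.48) were highest and Krt15 (0.06) and Trp63 (0.27) lowest. Of the single genes, Tgm1 varied with the basal score at 0.49 (0.34 by library total), whereas Ivl was at -0.05 (-0.27).

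Within pairs the daughter with fewer Trp63 counts had the higher envelope score in 21 of 48 pairs (43.8%, exact 95% interval 29.5% to 58.8%), and in 20 by library total. The daughter with more H3.3 transcripts (H3f3a and H3f3b) had the higher score in 27 of 48 (56.3%, 41.2% to 70.5%), and in 22 by library total. The daughter with more Mki67 had the higher score in 27. Of 30 such counts for single genes, 1 had an interval without 50%, that of Cstb, higher with more Mki67 in 32 of 48 pairs (66.7%, 51.6% to 79.6%), but in 27 by library total. By library total it was again 1 of 30, that of Krtdap with Mki67 (higher in 4 of 17 pairs, 23.5%, 6.81% to 49.9%). For Ppl the daughter with less Trp63 was higher in 18 of 48 pairs, and for Ivl in 27 of the 46 pairs that were not tied. For the score, these intervals, which cover counting error over pairs only, hold shares on both sides of an even split.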

How the data were processed

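Reads of 96 single-cell G&T-seq libraries were trimmed by the authors with Trimmomatic 0.39, aligned with STAR 2.7.11a to GRCm38 with ERCC sequences added, and counted per gene with StringTie 2.2.1 (tools and build as in the submitters' processing notes and the study's methods). The authors deposited 1 matrix of whole-number counts, not normalized, and for every cell a table of TPM, which is scaled for gene length and library size and includes the ERCC transcripts.

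Counts were divided by size factors (median of ratios, from those 22 of 92 ERCC transcripts with a count in all 96 cells). The log2 values and the asymmetry ratios used a pseudocount of 1, added to normalized counts or, by library total, to CPM. The 2 scalings therefore also differ in the weight of low counts. Ranks, correlations and ICC were computed with Python 3.11.15, numpy 2.4.6, scipy 1.17.1 and pandas 2.3.3, and figures drawn with matplotlib 3.10.9. Functions were tested on simulated data. The filter on low counts asked for 10 or more reads in 10% of cells or more. The asymmetry ratio of 1.5 follows the study's methods. Shares carry exact Clopper-Pearson 95% intervals, and a count of 0 carries a limit set at 3 counts; both cover counting error only, as amplified reads are not independent molecules.

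The labels put all cells in 1 group and name no mouse or culture, so that no test was run. The 10 genes and the gene lists were chosen with earlier results of these data known. Genes named from a list have the 3 highest or 2 lowest rho in it or no read in any cell; other named genes are the 10 highest and lowest by rho with the envelope score, the 3 most like each envelope gene, their neighbours on the chromosome, Trp63, H3f3a, H3f3b and Mki67. Cells were named by the same rule as the highest or lowest for a gene or the pairs of the largest ratio. A few genes outside the rule (Krt5, Krt14, Pkp1, Sprr1a, Lor, Tchh, Crnn, Flg, Krt1, Krt2, Krt10, Cbr2, Cyp2g1, Il33) were named after their values were seen. Alternatives to the scaling, pseudocount, ratio, detection limit, score and correlation were tried. Values of 2 genes that this rule names are not reported here.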

Additional observations from a re-analysis of the deposited data

How the results depend on the processing

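Each of the 9 summary values was recomputed under 3 to 10 alternatives besides those that leave out a set. Of the 78 values this gave, 75 stayed within their spread (the SD over genes, combinations of genes or sets, 1.5 times for a count, or the exact interval of a share), and the other 3 were reversed. These were all of the rho of the envelope score with the cell cycle score, 0.20 by spike-in, which was -0.14 by library total, -0.10 by the median of ratios over genes counted in every cell and -0.12 by TPM; the cause was not tested. The count of pairs in which the daughter with more H3.3 had the higher score stayed within its interval but moved from 27 of 48 to 22 by library total, 21 by the median of ratios and 22 by TPM, on the other side of an even split. Alternatives chosen after the counts were seen were low counts taken as 0, leaving out pair 4 or pair 46, and leaving out each of the 12 sets. Without pair 4 the median correlation of sister differences fell from 0.13 to 0.06, which still counted as within its spread. The spreads are wide: the rho with the basal score also counted as within at 0.21 by library total, against 0.53. Staying within them is therefore a weak mark of stability. Leaving out each set in turn gave 30 to 32.5 asymmetric pairs of 44 (median over genes), where all sets gave 34 of 48. The median ICC was then 0.31 to 0.44, the median rho among genes 0.13 to 0.20 and that of sister differences 0.05 to 0.20. The rho of the envelope score was 0.14 to 0.27 with the cell cycle and 0.50 to 0.56 with the basal score. The pairs in which the daughter with less Trp63 had the higher score were then 17 to 20, and those for H3.3 23 to 26, over 44 pairs. Depth does not limit the abundant genes, but a count near 0 cannot tell a silent gene from molecules lost in the assay.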
